A study of Mus musculus with 9 samples.

Results

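Mammary epithelial preparations that had met collagenase alone were compared with preparations that had also been through trypsin and a mock pass of a cell sorter, so that the change measured is the sum of both handling steps. The comparison was defined by the titles of the samples, with 3 mock sorted against 3 untrypsinized arrays, and it uses 6 of the 9 arrays of the study. All cells came from mammary glands of wild-type C3H females aged 8 to 9 weeks, and were labelled epithelial cells. Untrypsinized cells had been freed from the fat pad by collagenase, trypsinized cells had then met trypsin, and mock sorted cells had then passed a mock fluorescence-activated sort after that trypsin step. The 3 trypsinized arrays divide the change into a trypsin step (trypsinized minus untrypsinized) and a sorter step (mock sorted minus trypsinized), which add up to the change over both steps. Each group had 3 arrays that the labels call biological replicates. They name no animals and do not say whether animals were pooled, so the p-values given here speak of the scatter among these arrays alone, and that scatter may be technical in part.

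The mouse mammary gland is a branched epithelial tree of luminal cells, some of which sense hormones and some of which make milk, wrapped in contractile basal (myoepithelial) cells. It lies in a fat pad with fibroblasts, blood and lymph vessels, nerves and leukocytes. Collagenase cuts the matrix and releases epithelial fragments together with attached stroma, trypsin cuts proteins at cell surfaces and junctions to give single cells, and a sorter carries the cells through a pressurised stream. RNA of a bulk sample reports both which cells are present and what each cell expresses, so fewer cells of a type and less RNA per cell cannot be told apart here.

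Values are log2 of the deposited intensity plus 1, each gene has 1 row of the table, and differences are given on this log2 scale with their standard error (SE) from limma. Levels of different genes are not compared, because rows differ in their probes. Log2 values correlated at 0.993 to 0.997 between mock sorted arrays, at 0.996 to 0.997 between untrypsinized arrays and at 0.981 to 0.986 between the groups. As a guide to dim rows, 1027 olfactory receptor genes, which a mammary gland is not known to use, had a mean log2 level of 6.55 and a 95th percentile of 8.2. The defining epithelial markers were bright in every array: Epcam, the epithelial adhesion molecule, ranged from 13.05 to 13.1 in untrypsinized and from 13.1 to 13.17 in mock sorted arrays, and Krt8 and Krt14, the luminal and basal keratins, lay at 12.71 or above in all of these arrays.

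The call rule for a gene asked for at least 1.5-fold and an adjusted p in limma no higher than 0.05. Over both steps 892 of 19938 genes were called, or 4.47% of those tested, of which 677 (3.4%) were lower and 215 (1.08%) higher in mock sorted cells. The larger differences were falls: 291 genes fell and 27 rose by at least 2-fold, and all 16 genes past 4-fold fell. Without a minimum fold, 4189 genes were higher (21% of those tested) and 3588 lower (18%), so many small differences were also beyond the spread between arrays. Mock sorted and untrypsinized arrays did not overlap in 10392 genes (52.1%), and in 891 of the 892 called. The balance of the calls moved with the scaling: it was 116 higher and 861 lower after quantile normalization over all rows, and 92 higher and 1028 lower when each array was given the same median over all rows (here called a common median), which moved the median difference of all genes from 0.05 to -0.09.

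**Figure D1:**
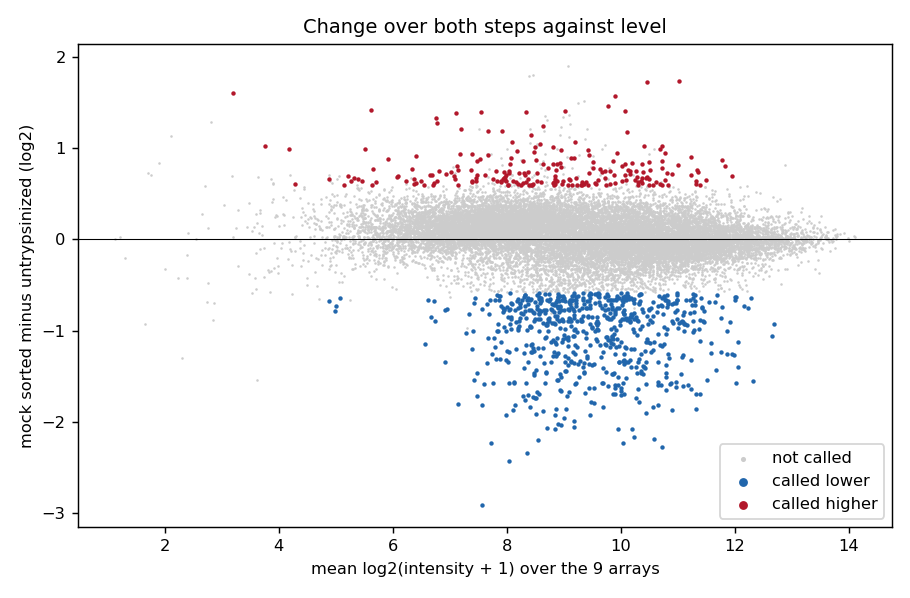
Mock sorted minus untrypsinized difference (log2, vertical axis) against mean log2(intensity + 1) over the 9 arrays (horizontal axis), 1 point per gene, with the 677 genes called lower in blue and the 215 called higher in red. Falls reached -2.91 and rises among called genes 1.74, and called falls are few among the 4985 dimmest genes (41, against 257 among the 4984 next in level).

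Of the 40 gene lists, that of the blood vessel lining had the median farthest from 0. Endothelial cells line vessels and carry their own junction proteins and growth factor receptors. Of 26 endothelial genes measured, 25 were called lower and none higher. Their median difference was -1.48, beside 0.05 over all genes, and 25 members were called lower in each fit that left out 1 array and under each scaling. The summed intensity of the list was 65269 to 74009 in untrypsinized arrays, 52024 to 52707 in trypsinized arrays and 25952 to 30325 in mock sorted arrays, so its mean ended at 40.3% of the untrypsinized mean.

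Tek, the receptor of the angiopoietins, read 10.78, 10.95 and 10.97 in untrypsinized arrays, 10.08, 10.14 and 10.1 in trypsinized arrays and 8.91, 8.65 and 8.89 in mock sorted arrays. The groups did not overlap, and the fall of 4.23-fold (fell by 2.08, SE 0.08, adjusted p = 1.66e-06) was made up of -0.79 in the trypsin step and -1.29 in the sorter step. Aplnr, the receptor of the peptide apelin, stood at 11.03, 11.1 and 11.24, then 10.43, 10.48 and 10.39, then 9.15, 8.89 and 9.07 over the same order of arrays. Its 3 groups were again separate, and it also fell by 2.08 (SE 0.08). Cldn5, the claudin of endothelial tight junctions, went from 11.11, 11.31 and 11.37 to 9.49, 9.25 and 9.36 (fell by 1.90, SE 0.08). Sele, the selectin with which activated endothelium catches leukocytes, went from 11.66, 11.69 and 11.73 to 9.96, 9.65 and 9.85. In each of these genes the lowest untrypsinized array lay above the highest mock sorted array by more than the range within either group. The receptor phosphatase Ptprb fell by 1.84 (SE 0.07) and the junctional adhesion protein Esam by 1.69 (SE 0.07).

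In the single steps, 6 endothelial genes were called lower after trypsin and 23 after the sorter, against 1.46% of all genes called in either direction after trypsin (0.933% lower, 0.532% higher) and 1.19% after the sorter (1.17% lower, 0.0251% higher). The median difference of the list was -0.45 in the trypsin step and -1.04 in the sorter step. These steps share the trypsinized arrays, and the lowest adjusted p of an endothelial gene in the limma test of the difference between the steps was 0.0739, for Sele. Icam2 and Eng, an adhesion molecule and a co-receptor of the TGF-beta family, were the endothelial genes that were called over both steps although each step stayed under 1.5-fold. Ece1, an enzyme that processes endothelin, was the one member without a call and differed by -0.23 (picked after its value was seen).

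Genes of vessel-associated cells followed with smaller counts. Pericytes and vascular smooth muscle surround the endothelium, and 7 of 15 of their genes were called lower and none higher (median -0.51). The summed intensity of this list in mock sorted arrays was 74.1% of the untrypsinized mean. Kcnj8, the pore of a pericyte potassium channel, read 10.15, 10.33 and 10.37 in untrypsinized and 8.73, 8.52 and 8.72 in mock sorted arrays. Abcc9, the regulatory partner of that channel, read 10.42, 10.49 and 10.76 and then 9.21, 8.98 and 9.12. Both fell without overlap of the groups, by 1.63 (SE 0.07) and 1.46 (SE 0.09). Rgs4 and Rgs5, which shorten G protein signals, fell by 1.57 (SE 0.09) and 1.43 (SE 0.08), and the intermediate filament gene Des fell by 1.48 (SE 0.09). Mcam, an adhesion molecule of vessels, fell by 0.93 (SE 0.05) and was under 1.5-fold in each step.

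Of 9 lymphatic endothelial genes, 3 were called lower. Mmrn1, a secreted multimerin, fell by 1.91 (SE 0.16), the scavenger receptor Stab1 by 1.26 (SE 0.10), and Flt4, the receptor of the lymphatic growth factor VEGF-C, by 0.97 (SE 0.13). Prox1, the factor that defines the lymphatic lineage, differed by -0.32 (SE 0.09, adjusted p = 0.0195), which is under 1.5-fold.

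The single largest fall of all genes belonged to the nerve sheath. Schwann cells wrap peripheral axons, and 7 of 13 of their genes were called lower, with a median difference of -1.06. Cdh19, a cadherin of the Schwann lineage, read 9.06, 9.04 and 9.27 in untrypsinized, 7.34, 7.34 and 7.48 in trypsinized and 6.26, 6.1 and 6.28 in mock sorted arrays. All 3 groups were separate, the fall was 7.53-fold (fell by 2.91, SE 0.08), and the mock sorted mean lay below the mean level of the olfactory receptor genes. Gjc3, a connexin of cells that make myelin, read 9.21, 9.17 and 9.59 and then 6.93, 6.88 and 6.89 in mock sorted arrays (fell by 2.43, SE 0.10). The neural membrane glycoprotein Gpm6a fell by 2.34 (SE 0.08), and the myelin genes Mbp and Pmp22 fell by 1.61 (SE 0.06) and 1.06 (SE 0.04).

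The Schwann list had medians of similar size in the trypsin step (-0.48, 6 genes called lower) and the sorter step (-0.46, 6 genes called lower). Its other members included Sox10, Ngfr and Erbb3, which were each higher without reaching 1.5-fold, by 0.19, 0.24 and 0.26. These genes are also known from mammary epithelium (Sox10 and Ngfr were picked after their values were seen). Among 12 neuronal genes, Stmn2, a tubulin-binding protein of growing axons, read 10.19, 10.43 and 10.42 and then 8.56, 8.36 and 8.32 in mock sorted arrays. It fell by 1.93 (SE 0.08), and no other neuronal gene was called.

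Fat, connective tissue and muscle genes moved in part. Of 18 adipocyte genes 7 were called lower and none higher, with a median of -0.15. Aqp7, a channel for water and glycerol, read 10.92, 11.16 and 11.41 in untrypsinized and 8.87, 8.91 and 9.2 in mock sorted arrays (fell by 2.17, SE 0.14). Car3, a carbonic anhydrase abundant in fat and muscle, read 11.5, 11.47 and 11.71 and then 9.27, 9.15 and 9.7 (fell by 2.19, SE 0.14). Cd36, which takes up fatty acids, fell by 1.57 (SE 0.07) and Fabp4, which binds them inside the cell, by 1.40 (SE 0.07). Both of the latter are also known from capillary endothelium. The hormone genes Adipoq and Lep and the lipid droplet gene Plin1 differed by 0.02, 0.19 and 0.08, with adjusted p-values of 0.791, 0.121 and 0.446 (picked after their values were seen). Adipoq read 7.78, 7.72 and 7.87 in untrypsinized and 7.74, 7.85 and 7.83 in mock sorted arrays, below the 95th percentile of the olfactory receptor genes. Lep had group means of 7.92 and 8.11, also below it, so neither hormone gene bears on a fall.

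Of 25 fibroblast genes, 6 were called lower, 22 were lower when no minimum fold was asked, and the median was -0.41. Igf2, the fetal insulin-like growth factor, read 10.95, 11.09 and 11.09 in untrypsinized, 10.64, 10.61 and 10.64 in trypsinized and 9.21, 9.26 and 9.32 in mock sorted arrays. It fell by 1.78 (SE 0.05), most of it in the sorter step. Ogn, a small proteoglycan of the matrix, had the opposite division, with -0.68 in the trypsin step and -0.23 in the sorter step. Fbln2, a matrix glycoprotein, read 11.47, 11.44 and 11.51, then 11.18, 11.18 and 11.21, then 10.66, 10.65 and 10.69. Its 3 groups were separate and it fell by 0.80 (SE 0.03), although neither step reached 1.5-fold. The fibroblast count was 12 with the arrays set to a common median, and 4 to 8 with 1 array left out.

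Skeletal muscle genes were called lower in 6 of 19, and in 4 to 8 with 1 array left out. Their median was -0.19, or -0.04 over the 15 above the olfactory 95th percentile, of which 5 were called lower. Ckm, the muscle creatine kinase, varied between untrypsinized arrays (10.14, 9.35 and 9.78) more than between mock sorted arrays (7.62, 7.68 and 7.78), and fell by 2.07 (SE 0.19). The myosin light chain Myl1 fell by 2.04 (SE 0.14). Myh1, a fast myosin heavy chain, fell by 0.64 (SE 0.09), and by 0.53, under 1.5-fold, without untrypsinized replicate 1.

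**Figure D2:**
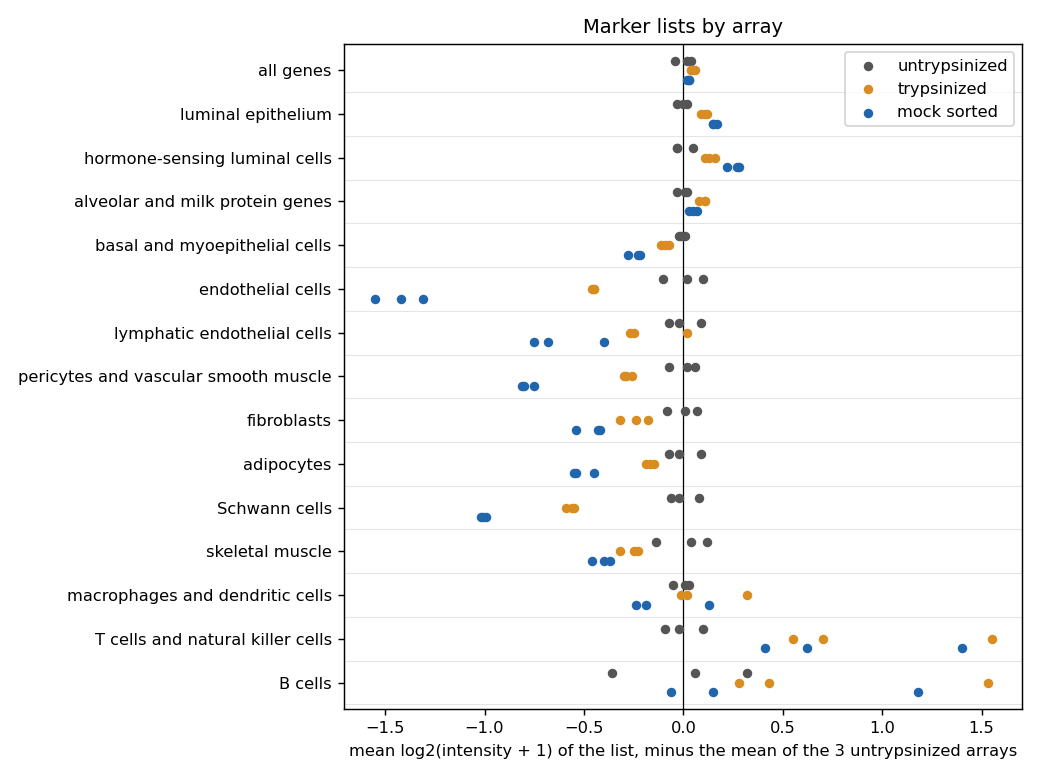
Mean log2(intensity + 1) of the genes of each marker list, minus the mean of the 3 untrypsinized arrays (horizontal axis), for each of the 9 arrays, by list (vertical axis). Mock sorted arrays lie farthest to the left for endothelial cells. In the list of T cells and natural killer cells, replicate 1 stands to the right of the other arrays in both the trypsinized and the mock sorted group.

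Leukocyte genes did not move as a block. The list of 17 T cell and natural killer cell genes had a median difference of 0.71 (0.39 without mock sorted replicate 1, 0.47 with array weights). Of these, 3 were called higher: Cd8b1 and Cd3e, parts of the CD8 co-receptor and of the T cell receptor complex, and Lat, an adaptor of that receptor. Cd8b1 read 8.28, 9.2 and 8.87 in untrypsinized, 11.43, 10.27 and 9.91 in trypsinized and 11.3, 10.07 and 9.69 in mock sorted arrays, so that replicate 1 was highest in both later groups. It rose by 1.57 (SE 0.50, adjusted p = 0.0384). The mean log2 level of the list was 7.98 to 8.17 in untrypsinized arrays. It was 9.47 in mock sorted replicate 1 against 8.69 and 8.48 in the other mock sorted arrays, and the list median was 0.90 in the trypsin step and -0.12 in the sorter step. The calls were borderline and changed when single arrays were left out. The number of genes of this list called was 0 without untrypsinized replicate 1, 2 or 3 or mock sorted replicate 1 or 2. It was 1 without trypsinized replicate 2, 7 without trypsinized replicate 1 and 5 without mock sorted replicate 3. With a robust variance trend it was 0, and with array weights 1. It was 8 with the replicate number as a block on 9 arrays, 6 with the block on the 6 arrays and 5 on these 6 arrays without a block. In the fits without those untrypsinized or mock sorted arrays, Cd8b1 was still higher by 1.09 to 1.78, and its adjusted p in limma was 0.0504 to 0.119.

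B cell genes had a median of 0.51 over 13 genes (0.18 without mock sorted replicate 1, 0.80 without mock sorted replicate 2). None was called higher, but 5 were with the replicate block on 9 arrays, 3 with the block on 6 arrays and 1 without trypsinized replicate 1. Ighm, the heavy chain of IgM, read 8.93, 8.36 and 8.5 in untrypsinized and 10.54, 9.19 and 9.34 in mock sorted arrays (higher by 1.10, SE 0.46, adjusted p = 0.0886). Replicate 1 was again the highest array in that group. The mean log2 level of the macrophage and dendritic cell list was likewise 9.58 in mock sorted replicate 1 against 9.21 and 9.26 in the others. Ebf1, a B lineage factor that is also known from fat and mural cells, was the one gene called lower (fell by 1.26, SE 0.12). Of 23 macrophage and dendritic cell genes 4 were called lower. These were the lectins Cd209f (fell by 1.07, SE 0.09), Clec10a (0.85 lower, SE 0.10) and Mrc1 (0.81 lower, SE 0.12), which mark tissue-resident macrophages, and Adgre1, which encodes a surface antigen of mature macrophages (0.66 lower, SE 0.06). Cx3cr1, a chemokine receptor, was higher by 0.18 (SE 0.03), under 1.5-fold. No gene of 12 for mast cells and granulocytes or of 3 for red blood cells was called (2 higher and 1 lower, and 1 and 1, without a minimum fold).

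Epithelial genes stayed close to their starting level. None of 19 luminal genes was called, but 13 were higher and 1 lower without a minimum fold, with a median of 0.15. With the arrays set to a common median that value was 0.00, while all genes then had a median of -0.09. Elf3, an epithelial ETS factor, read 11.58, 11.74 and 11.53 and then 12.12, 12.14 and 12.08 (higher by 0.50, SE 0.06). Cdh1, the epithelial cadherin, read 12.76, 12.76 and 12.78 and then 13.03, 13.08 and 13.06 (higher by 0.29, SE 0.03). Both were separate between the groups, at sizes below 1.5-fold. Elf5, the factor of the alveolar luminal lineage, was the gene on the lower side (-0.21, SE 0.04).

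The 9 hormone-sensing luminal genes were all above 0, with a median of 0.21 (0.06 with a common median) and 6 higher at an adjusted p of 0.05 or below. Greb1, a cofactor induced by the oestrogen receptor, read 8.91, 8.87 and 8.83, then 9.36, 9.29 and 9.41, then 9.48, 9.42 and 9.44, and was higher by 0.58 (SE 0.04). Here 1 gene was called without untrypsinized replicate 1 or mock sorted replicate 2. Pgr, the progesterone receptor, read 11.72, 11.84 and 11.69 and then 12.12, 12.15 and 12.1 (higher by 0.37, SE 0.05). Esr1, the oestrogen receptor itself, was higher by 0.21 (SE 0.03). The groups were separate in these 3 genes. The 15 alveolar and milk protein genes had a median of 0.01 (-0.14 with a common median), with 2 higher and 3 lower at that adjusted p. Csn2, beta-casein, differed by -0.27 (SE 0.08). There was 1 alveolar gene called without untrypsinized replicate 3.

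Basal genes leaned the other way. Of 22, 3 were called lower and 14 were lower when no minimum fold was asked, with a median of -0.19. The basal keratin genes Krt5 and Krt14 had differences of -0.09 and -0.05 (adjusted p = 0.111 and 0.294; picked after their values were seen). The genes called were Mylk, the myosin light chain kinase of smooth muscle and myoepithelium (fell by 0.77, SE 0.05), and the Notch ligands Dll1 (fell by 0.60, SE 0.05) and Jag2 (fell by 0.59, SE 0.04), all under 1.5-fold in each step. Vessels are also known to express genes of this kind, and their part in the values was not tested. Without mock sorted replicate 1, Dll1 and Jag2 differed by -0.55 and -0.58 and 1 basal gene was called, as it was after quantile normalization over the tested genes. The oxytocin receptor gene Oxtr, specific to the contractile layer of the gland, was lower by 0.38 (SE 0.04), and the contractile genes Myl9 and Tagln by 0.49 (SE 0.04) and 0.39 (SE 0.04), all under 1.5-fold.

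Transcription factors control which lineage genes a cell expresses. Some of them, such as Sox17 and Erg, are also members of the endothelial list. Of 23 endothelial and mesenchymal factors 15 were called lower and none higher, with a median of -0.94, while of 19 epithelial factors none was called, 16 were higher and 2 lower without a minimum fold, and the median was 0.23 (0.08 with a common median). Sox17, an endothelial factor, read 9.54, 9.67 and 9.85 in untrypsinized and 8.04, 8.03 and 8.05 in mock sorted arrays (fell by 1.65, SE 0.07). Prrx1, a factor of mesenchyme, read 10.93, 11.08 and 11.17 and then 9.7, 9.5 and 9.68 (fell by 1.44, SE 0.07). Both groups of arrays were separate in either gene. Erg of the endothelium fell by 1.63 (SE 0.09), Nr2f2 of veins and lymphatics by 1.19 (SE 0.06), and Ebf2, known from fat and mural precursors, by 1.28 (SE 0.05). Tbx18, a mural cell factor, fell 2-fold (SE of 0.05 on the log2 scale) while staying under 1.5-fold in each step. On the epithelial side Ovol1, which represses mesenchymal genes, read 9.65, 9.61 and 9.53 and then 10.12, 10.14 and 10.11 (higher by 0.53, SE 0.05), and the splicing factor Esrp2 was higher by 0.36 (SE 0.03).

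Families of cell junction genes held calls in a few members, of which Cdh19, Cdh5, Cldn5 and Esam are also in the Schwann or endothelial list. Among 15 cadherins, 5 were called lower, namely Cdh19, the neural cadherin Cdh2 (fell by 1.33, SE 0.07), the vascular endothelial cadherin Cdh5 (fell by 1.26, SE 0.09), Cdh13 of vessel walls (fell by 1.02, SE 0.06) and Cdh6 (fell by 0.96, SE 0.05). Cdh1 was among the 3 that were higher without a minimum fold. Among 23 claudins, Cldn5 alone was called, and the median was 0.11, or -0.04 with the arrays set to a common median. Cldn23 read 8.88, 8.93 and 8.84 and then 9.34, 9.44 and 9.41 (higher by 0.51, SE 0.06), and Cldn1 read 11.92 in each untrypsinized array and 12.23, 12.22 and 12.18 in mock sorted arrays (higher by 0.29, SE 0.03). These claudins seal epithelial sheets, and their groups were separate.

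Of 17 partners of the tight junction, the adhesion molecules Jam2 (fell by 1.70, SE 0.07), Esam and Jam3 (fell by 0.95, SE 0.07) were called lower. Marveld2, which seals the corners where epithelial cells meet, was higher by 0.39 (SE 0.05), and Ocln, occludin, by 0.27 (SE 0.05), both under 1.5-fold. Desmosomes rivet epithelial cells to each other, and of 12 desmosome genes none was called and 8 were higher without a minimum fold, with a median of 0.29 (0.14 with a common median). Without untrypsinized replicate 2, 1 desmosome gene was called. The plakin genes that tie desmosomes to keratin were the largest of these. Dsp read 11.33, 11.34 and 11.3 and then 11.83, 11.86 and 11.8 (higher by 0.50, SE 0.03), and Ppl read 10.03, 10.16 and 10.06 and then 10.62, 10.67 and 10.62 (higher by 0.55, SE 0.04). In both, all of the trypsinized arrays were already above the untrypsinized arrays, and the trypsin step gave 0.43 and 0.47 of the difference.

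**Figure D3:**
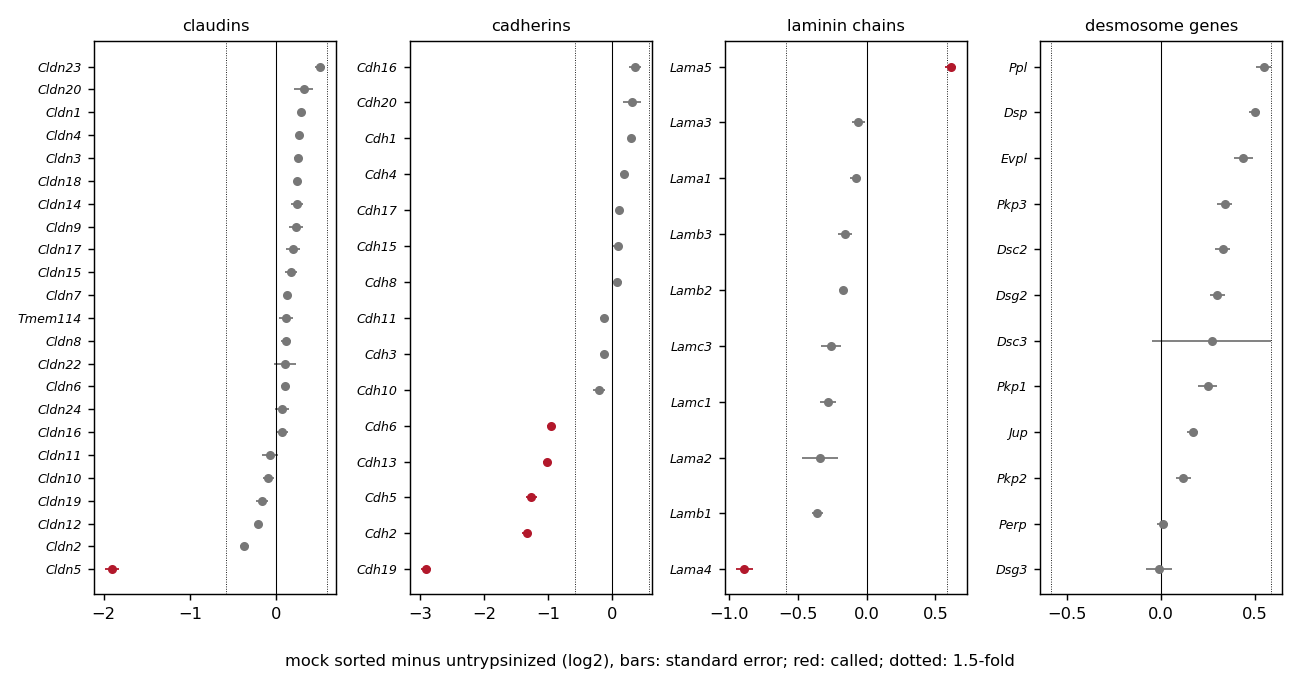
Mock sorted minus untrypsinized difference (log2, horizontal axis, with bars of 1 standard error, n = 3 arrays per group) for the claudins, cadherins, laminin chains and desmosome genes (vertical axis), red where called, with dotted lines at 1.5-fold. The called falls, down to -2.91 in Cdh19 and -1.90 in Cldn5, lie apart from the other members, and Lama5 is the one called rise.

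Matrix chains held few calls. Of 10 laminin chains, Lama4, the chain of vessel basement membranes, read 10.39, 10.34 and 10.54 and then 9.57, 9.49 and 9.55 (fell by 0.89, SE 0.06). Lama5, a chain of epithelial and vascular basement membranes, read 10.89, 10.99 and 10.97 in untrypsinized, 11.46, 11.43 and 11.45 in trypsinized and 11.59, 11.59 and 11.5 in mock sorted arrays. It rose by 0.61 (SE 0.04, adjusted p = 1.78e-05), and differed by 0.58 without untrypsinized replicate 1 and 0.46 with a common median, both under 1.5-fold. The groups of both chains were separate. Of 23 collagen chains 2 were called lower, Col18a1 of basement membranes (fell by 0.69, SE 0.04) and the fibrillar Col5a2 (fell by 0.62, SE 0.09), and 14 were lower without a minimum fold. Col5a2 differed by -0.57 without untrypsinized replicate 1 or 3, so that 1 collagen was then called, and 6 were called with a common median.

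Of 17 membrane mucin and glycocalyx genes, 2 were called higher and 2 lower, with a median of -0.04. Muc4, a membrane mucin that binds ERBB receptors, read 7.71, 8.02 and 7.93 in untrypsinized, 8.86, 8.89 and 8.83 in trypsinized and 9.16, 9.14 and 9.09 in mock sorted arrays. Each group lay above the one before, and the rise was 2.37-fold (1.24, SE 0.07, adjusted p = 8.71e-06). Muc16, another membrane mucin, rose by 0.92 (SE 0.11) from levels under the olfactory 95th percentile, and was under 1.5-fold in each step. Emcn, the sialomucin of endothelium, fell by 1.26 (SE 0.08) and the glypican Gpc3 by 0.69 (SE 0.06). Among 13 epithelial serine proteases and their inhibitors and receptors, Prss22, a secreted tryptase, read 10.05, 10.17 and 9.91 and then 10.66, 10.81 and 10.68 (rose by 0.67, SE 0.08, but 0.52 with a common median), and F2r, the thrombin receptor, was lower by 0.44 (SE 0.12), under 1.5-fold.

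Dissociation of tissue is known to set off immediate early genes and other stress programmes. None of 33 immediate early genes was called. The untrypsinized cells had already met collagenase, and the list had a mean log2 level of 12.28 in them. Induction before that point cannot be seen in this comparison. Without a minimum fold 9 were higher and 6 lower, beside 21% and 18% of all genes, and the median was 0.05, equal to that of all genes. With a common median 1 was called lower and the median was -0.10, beside -0.09 over all genes. Nr4a2, an orphan nuclear receptor induced within minutes, read 12.41, 12.45 and 12.53, then 12.21, 12.19 and 12.17, then 11.97, 11.96 and 11.96 (lower by 0.50, SE 0.04). Its relatives Nr4a1 and Nr4a3 (the latter picked after its value was seen) differed by -0.28 and -0.29, and Fosl2, an AP-1 subunit, by -0.30. Ccn1, a matrix signal of the YAP and serum response pathways, read 12.9, 12.94 and 12.96 and then 13.29, 13.31 and 13.23 (higher by 0.34, SE 0.04), and the AP-1 subunit Fosl1 was higher by 0.33 (SE 0.03). The 3 Nr4a genes lay lower, and Ccn1 and Fosl1 higher, in every mock sorted array than in every untrypsinized array, at sizes under 1.5-fold. Such separation was common: it held for 24 of the 33 genes of this list and for 52.1% of all genes.

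Of 16 heat shock chaperones, Cryab, a small chaperone of muscle and epithelium, was called (fell by 0.64, SE 0.04), and the inducible Hspa1a was higher by 0.26 (SE 0.06). No gene was called among 21 of the unfolded protein and integrated stress responses (0 higher and 4 lower without a minimum fold), 16 p53 targets (8 and 3), 18 hypoxia and glycolysis genes (4 and 5), 24 cell cycle genes (1 and 5), 26 subunits of oxidative phosphorylation (0 and 14) or 19 cytosolic ribosomal proteins (0 and 4). The cell death and checkpoint genes Bbc3, Plk2 and Plk3 were higher by 0.35 (SE 0.04), 0.33 (SE 0.03) and 0.37 (SE 0.04). The p53 list had a median of 0.13, or -0.02 with a common median. Among 15 genes of oxidative stress, Osgin1 rose by 0.64 (SE 0.03, but 0.49 with a common median) and Nqo1, a quinone reductase, fell by 0.66 (SE 0.05). Both are known targets of the factor NRF2, and they moved in opposite directions.

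Inflammatory genes also went both ways. Of 27 cytokines and NF-kB targets, 2 were called higher and 3 lower. Tnf, the macrophage and epithelial cytokine, read 10.31, 10.35 and 10.3 in untrypsinized, 11.05, 11.03 and 11.07 in trypsinized and 11.12, 11.07 and 10.95 in mock sorted arrays (rose by 0.73, SE 0.05, but 0.58 with a common median). Il6, an interleukin made by stroma and endothelium, read 12.28, 12.27 and 12.37, then 11.92, 11.96 and 11.83, then 11.18, 10.97 and 11.07 (fell by 1.24, SE 0.06). Tnf thus stayed at its trypsinized level and Il6 went down in each step, with no overlap of mock sorted and untrypsinized arrays in either. Vcam1, an adhesion molecule of activated vessels, and the chemokine Cxcl10 fell by 0.98 (SE 0.12) and 0.97 (SE 0.11). Csf2, a myeloid growth factor, was the other rise (0.59, SE 0.10), and the count of rises was 1 without untrypsinized replicate 2 or 3 or mock sorted replicate 3 and 0 with a common median.

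Interferon-induced genes were lower. Of 16, 4 were called lower and 10 were lower without a minimum fold, none was higher, and the median was -0.29. Ifit3 read 10.28, 10.29 and 10.54 and then 9.29, 9.0 and 9.28 (fell by 1.18, SE 0.10), and Ifit1, which like it blocks translation of foreign RNA, fell by 1.05 (SE 0.08). The GTPases Gbp3 and Mx2 fell by 0.75 (SE 0.07) and 0.66 (SE 0.09), each under 1.5-fold in the single steps. The summed intensity of this list fell with that of the endothelial list, to 76.7% and 40.3% of the untrypsinized means, and the part of endothelial RNA in the interferon genes was not tested.

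Growth factor genes of the EGF family leaned upward. Of 22 genes of ligands, receptors and ERK feedback, 12 were higher and 5 lower without a minimum fold, with a median of 0.16 (0.01 with a common median). Of these 1 was called, and 2 without untrypsinized replicate 2. Nrg1, the ligand of ERBB3 and ERBB4, read 9.82, 9.83 and 9.91 and then 10.44, 10.45 and 10.61 (rose by 0.65, SE 0.07, but 0.50 with a common median). The ligand gene Epgn was higher by 0.53 (SE 0.07) and the phosphatase gene Dusp4 by 0.46 (SE 0.03), while Spry4, a feedback inhibitor, was lower by 0.38 (SE 0.06). Of 16 YAP targets 3 were called lower. These were Dlc1 (fell by 1.14, SE 0.06), Nt5e, the ectonucleotidase CD73 (fell by 1.04, SE 0.05), and the secreted Fstl1 (fell by 0.66, SE 0.04), while Ccn1 of the same list was higher. With a common median 5 YAP targets were called lower.

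Many genes met the call rule, with its minimum of 1.5-fold, only when the steps were summed. Of the 892 called genes, 95 were called in both single steps, 178 in the trypsin step alone, 141 in the sorter step alone and 478 in neither. Of the latter, 460 (2.31% of all genes tested) were under 1.5-fold in each step, with 341 lower (1.71%) and 119 higher (0.597%). The larger step of Podn, a proteoglycan gene, was the last inside that limit, at 0.584. The adjusted p without regard to fold was 0.05 or below in both steps for 238 of the 460, in the trypsin step alone for 163, in the sorter step alone for 11, and in neither for 48. For all genes that rule called 13.9% higher and 11.5% lower in the trypsin step, and 0.466% higher and 4.2% lower in the sorter step. The steps share the trypsinized arrays, so their differences are not independent.

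**Figure D4:**
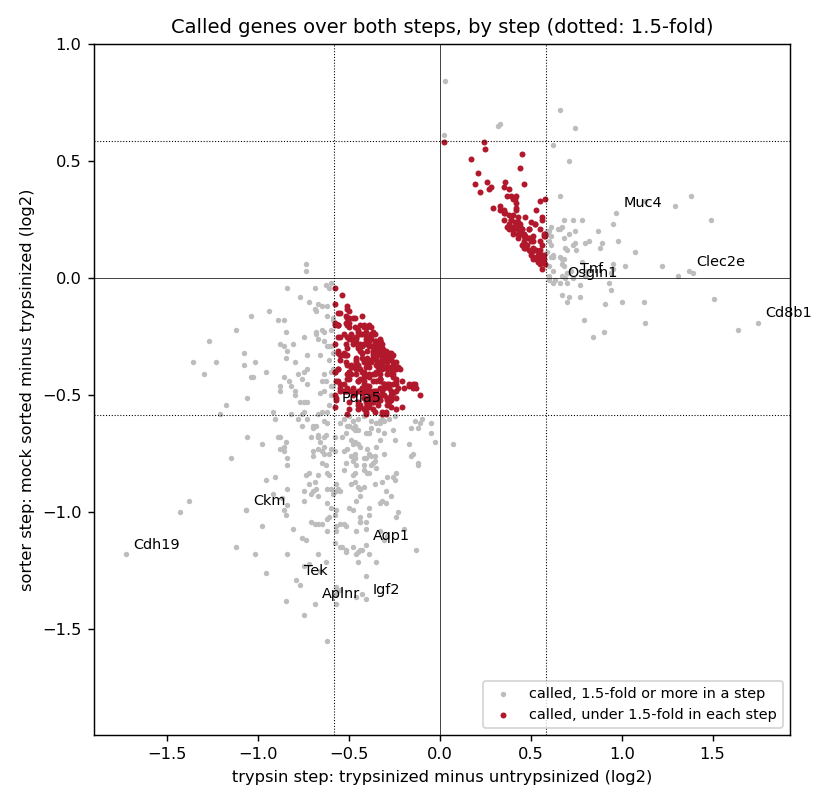
Difference in the sorter step (mock sorted minus trypsinized, log2, vertical axis) against the difference in the trypsin step (trypsinized minus untrypsinized, log2, horizontal axis) for the 892 genes called over both steps, with dotted lines at 1.5-fold. The 460 red points are genes under 1.5-fold in each step, and called rises spread along the horizontal axis while called falls spread along both.

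In the deposited scaling, called rises and falls were divided differently between the steps by size. The 215 genes called higher had a median of 0.55 in the trypsin step and 0.18 in the sorter step, and 195 of them (90.7%) had the larger difference in the trypsin step. The 677 called lower had medians of -0.45 and -0.48, with the larger difference in the trypsin step for 302 (44.6%). Over all genes, 65.8% had the larger difference in the trypsin step. Among genes under 1.5-fold in each step, the medians were 0.46 and 0.21 for the rises and -0.39 and -0.38 for the falls.

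The largest of these summed falls was that of Pdia5, a disulfide isomerase of the endoplasmic reticulum. It read 10.98, 11.06 and 11.08 in untrypsinized, 10.42, 10.47 and 10.49 in trypsinized and 9.86, 9.92 and 9.95 in mock sorted arrays. The arrays formed 3 separate groups (steps of -0.58 and -0.55), and the fall over both was 2.19-fold (fell by 1.13, SE 0.04, adjusted p = 1.66e-06). Because each step in this set is under 1.5-fold, its largest falls must come in 2 steps of similar size. The even division in the genes of this paragraph thus follows from how they were picked. Plscr4, a phospholipid scramblase, read 9.43, 9.42 and 9.47, then 8.86, 8.87 and 8.84, then 8.41, 8.29 and 8.38 (fell by 1.08, SE 0.04). A4galt, the enzyme that makes the glycolipid Gb3, read 9.88, 9.92 and 9.99, then 9.43, 9.35 and 9.32, then 8.91, 8.8 and 8.84 (fell by 1.08, SE 0.05). Each array of a later group was below each array of the group before in both genes.

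Other falls of this kind included lipid and sugar enzymes, with Cers4, a ceramide synthase, at -1.03 (SE 0.07), St3gal2, a sialyltransferase, at -1.01 (SE 0.10), and B3galnt1, a globoside synthase, at -1.01 (SE 0.06). Mest, an imprinted gene of mesenchyme, read 10.3, 10.35 and 10.46, then 9.79, 9.86 and 9.96, then 9.33, 9.15 and 9.46 (fell by 1.06, SE 0.08). F13a1, the coagulation factor XIII chain of resident macrophages, fell by 1.01 (SE 0.09). Atp1b2, a sodium pump subunit of glia, fell by 1.09 (SE 0.07).

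The summed rises were smaller. Casz1, a zinc finger factor, read 9.97, 10.1 and 10.06, then 10.57, 10.59 and 10.68, then 10.75, 10.71 and 10.7 (rose by 0.68, SE 0.05, but 0.53 with a common median). Rasgrf1, an activator of RAS, read 9.74, 9.85 and 9.75, then 10.15, 10.17 and 10.27, then 10.5, 10.51 and 10.49 (rose by 0.72, SE 0.05, but 0.57 with a common median). Capn8, a calpain protease of mucous epithelium, read 9.83, 10.06 and 10.04, then 10.5, 10.48 and 10.44, then 10.76, 10.74 and 10.64 (rose by 0.74, SE 0.07). In these 3 genes each group was separate from the next, and the trypsin step gave the larger share. Trex2, an exonuclease of stratified epithelium, rose by 0.76 (SE 0.05), Ccdc84 by 0.75 (SE 0.05) and Polg2, an accessory subunit of the mitochondrial DNA polymerase, by 0.73 (SE 0.08, but 0.58 with a common median).

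**Figure D5:**
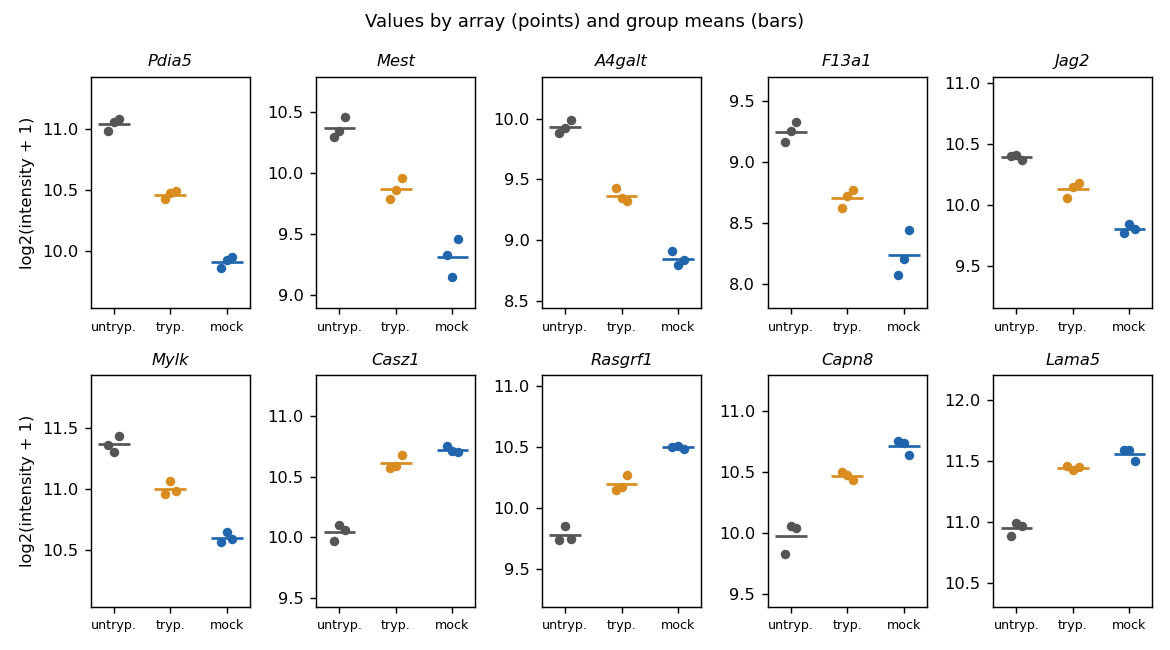
Log2(intensity + 1) in each of the 9 arrays (points) with group means (bars) for 10 genes that were under 1.5-fold in each step and called over both, in the order untrypsinized, trypsinized, mock sorted. Pdia5 steps down from 10.98 to 11.08 through 10.42 to 10.49 to 9.86 to 9.95, and Rasgrf1 steps up from 9.74 to 9.85 through 10.15 to 10.27 to 10.49 to 10.51.

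Of the rises that the naming rule gives, the largest outside the T cell genes was that of Clec2e, a C-type lectin-like gene of the natural killer receptor region. It read 7.33, 7.42 and 7.48 in untrypsinized, 8.76, 8.84 and 8.76 in trypsinized and 8.83, 8.89 and 8.71 in mock sorted arrays, a rise of 2.64-fold (1.40, SE 0.06, adjusted p = 2.36e-06). Trypsinized and mock sorted arrays overlapped, and both were apart from the untrypsinized arrays. Pou2f3, the factor of tuft cells, read 8.09, 7.94 and 7.81, then 8.64, 8.54 and 8.66, then 8.97, 8.82 and 9.07 (rose by 1.01, SE 0.09). Aloxe3, a lipoxygenase of the skin barrier, rose by 0.98 (SE 0.05), Tnip3, an inhibitor of NF-kB signalling, by 0.86 (SE 0.04), and Cnksr1, a scaffold of RAS signalling, by 0.85 (SE 0.04). Phxr4 rose by 0.97 (SE 0.07), with 0.32 in the trypsin step and 0.65 in the sorter step.

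Among the largest falls outside the lists were Cytl1, a secreted cytokine-like protein (fell by 2.28, SE 0.12), Fhl5, a LIM domain protein of smooth muscle (fell by 2.23, SE 0.06), and Npy1r, a receptor of neuropeptide Y (fell by 2.06, SE 0.07). Fhl5 read 10.95, 11.06 and 11.21, then 10.16, 10.22 and 10.29, then 8.87, 8.84 and 8.83, in 3 separate groups. Lgi1, a secreted neural protein, fell by 2.23 (SE 0.10), Timp4, an inhibitor of metalloproteinases, by 2.02 (SE 0.06), and Car4, a carbonic anhydrase on capillary surfaces, by 1.92 (SE 0.12).

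Whether the steps differed was tested directly as the sorter step minus the trypsin step. In limma with all 9 arrays, 25 genes (0.125%) had an adjusted p of 0.05 or below, 10 of them among the 892 called over both steps, and 3271 had an unadjusted p of 0.05 or below. This count was unstable: with the replicate number as a block it was 0 (with 3553 genes at an unadjusted p of 0.05 or below), and it was 0 to 28 when 1 array was left out (0 without any one trypsinized array or untrypsinized replicate 2, 1 without mock sorted replicate 2, 5 without untrypsinized replicate 1 or 3 and 6 without mock sorted replicate 3). Clec2e and Osgin1 rose in the trypsin step (1.37 and 0.66) and then differed by 0.03 and -0.02 in the sorter step. Igf2 fell by 0.41 and then by 1.37. Aqp1, the water channel of capillaries, read 12.93, 12.98 and 13.03, then 12.57, 12.6 and 12.55, then 11.49, 11.38 and 11.43, and Rbp7, a retinol-binding protein of capillaries and fat, fell by 0.46 and then by 1.36. Osgin1 read 10.89, 10.9 and 10.9, then 11.53, 11.53 and 11.59, then 11.54, 11.56 and 11.5, so that its later groups overlapped.

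Promoters of these contrasting genes are shown because Clec2e and Osgin1 rose at the trypsin step while Sele and Cldn5 were called lower in the sorter step and over both. They are RefSeq sequences of the GRCm38.p6 build, 300 bases around the first listed start of each gene, printed 5′ to 3′ on the strand of the gene, with capitals at the AP-1 letters TGANTCA and the TATA letters TATAAA. Clec2e lies at chr6:129100854-129101153 (minus strand), Osgin1 at chr8:119436897-119437196 (plus), Sele at chr1:164047984-164048283 (plus) and Cldn5 at chr16:18776597-18776896 (plus).
Clec2e: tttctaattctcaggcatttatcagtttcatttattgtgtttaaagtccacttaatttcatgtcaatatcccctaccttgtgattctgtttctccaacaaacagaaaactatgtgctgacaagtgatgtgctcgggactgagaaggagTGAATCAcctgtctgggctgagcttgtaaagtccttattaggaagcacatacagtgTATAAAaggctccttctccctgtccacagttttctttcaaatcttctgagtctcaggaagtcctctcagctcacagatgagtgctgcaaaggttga
Osgin1: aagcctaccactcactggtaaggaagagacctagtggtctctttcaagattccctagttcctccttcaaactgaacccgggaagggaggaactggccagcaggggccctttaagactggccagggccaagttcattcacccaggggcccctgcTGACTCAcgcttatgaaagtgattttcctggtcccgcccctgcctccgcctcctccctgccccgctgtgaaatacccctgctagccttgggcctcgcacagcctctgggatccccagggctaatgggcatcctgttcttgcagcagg
Sele: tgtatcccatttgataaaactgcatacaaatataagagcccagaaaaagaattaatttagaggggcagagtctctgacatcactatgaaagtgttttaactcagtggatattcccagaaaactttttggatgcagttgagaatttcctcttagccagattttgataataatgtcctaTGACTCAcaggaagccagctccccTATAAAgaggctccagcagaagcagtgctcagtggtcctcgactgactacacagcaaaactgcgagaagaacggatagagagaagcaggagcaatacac
Cldn5: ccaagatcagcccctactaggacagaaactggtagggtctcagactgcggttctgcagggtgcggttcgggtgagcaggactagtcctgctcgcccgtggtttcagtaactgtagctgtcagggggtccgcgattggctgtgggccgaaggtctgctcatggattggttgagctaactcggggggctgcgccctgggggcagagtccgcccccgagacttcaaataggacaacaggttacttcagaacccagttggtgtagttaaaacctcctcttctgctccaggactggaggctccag
The AP-1 letters occur in the windows of Clec2e, Osgin1 and Sele, thus in genes that rose and in one that fell, and the TATA letters in those of Clec2e and Sele. Of the 19938 genes tested, 15614 had a promoter window, and both strands were searched. The AP-1 letters were in 6.98% of all windows, 9.23% of the 130 windows of genes called higher and 9.36% of the 481 of genes called lower. The TATA letters were in 12.1%, 16.2% and 13.5%. The ETS letters CCGGAA were in 20.1%, 7.69% and 9.56%, and a consensus NF-kB motif in 0.416%, 0.769% and 0.832%. Windows of called genes also held fewer CG pairs, which are dense in promoters of housekeeping genes, with a median of 15 over all windows, 5 in genes called higher and 10 in genes called lower. The ETS letters contain such a pair. A match is a description of these windows and not a binding site.

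A few genes were called in a single step and not over both. There were 20, of which 18 had been called higher and 2 lower. Lif, a cytokine of the IL-6 family, read 11.25, 11.26 and 11.16, then 11.8, 11.89 and 11.8, then 11.8, 11.77 and 11.71. Clcf1, a relative of Lif, read 9.41, 9.54 and 9.45, then 10.14, 10.02 and 10.07, then 10.04, 10.06 and 9.95. Over both steps they were higher by 0.54 (SE 0.05) and 0.55 (SE 0.05), just under 1.5-fold, with untrypsinized arrays below all others. The lymphoid genes Timd4 and Ltb were higher by 0.99 (SE 0.41, adjusted p = 0.0874) and 0.59 (SE 0.23, adjusted p = 0.0698), and in both the trypsinized and the mock sorted group their highest array was replicate 1.

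Part of the called rises lay in dim or poorly named rows. Of the 215 genes called higher, 60 had both group means at or below the olfactory 95th percentile, 24 were olfactory or vomeronasal receptors and 35 had small RNA symbols, against 25, 3 and 3 of the 677 called lower. The matching counts over all genes are not given here. By level, the 4985 dimmest of all genes held 61 of the called rises, the next 4984 held 70, the next 4984 held 60 and the 4985 brightest held 24. The dimmest class thus held a share of the rises close to its share of all genes. The median difference was 0.13 in the 4985 dimmest genes and -0.02 in the 4985 brightest. Among the 12102 rows with no symbol here, 1926 were higher and 75 lower by the same rule (16.5% called), with a median difference of 0.24, while the 23410 rows listed with a gene had 308 and 726 (4.42%). The rises named above are from rows brighter than the olfactory 95th percentile in the mean of the higher group, other than that of Muc16.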

How the data were processed

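RNA of 9 samples had been hybridised, biotin-labelled, to whole-transcript mouse arrays. The deposited table holds linear intensities, 1 per row and array, from the authors. The submitters' processing notes name limma, with no role given, and no source used here gives the background correction, the scaling or the genome build. Array medians ran from 345 to 408, and 3 arrays per group limit the precision. Of 35512 rows, 21789 had a single gene symbol, 1621 several and 12102 none here. Symbols were updated by gene number through RefSeq (GRCm38.p6) for 21698 rows, and 1 row per gene, that with the highest mean over all arrays, left 19938 genes (999 had more than 1 row).

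Values were taken as log2(intensity + 1) from the deposited intensities and were not rescaled. One limma model (R 4.3.3, limma 3.58.1) with a mean for each of the 3 groups was fitted on all 9 arrays, with Benjamini-Hochberg adjustment over all genes. Its scripts were tested on simulated data. A call needed an adjusted p of 0.05 or below and 1.5-fold. The steps share the trypsinized arrays.

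The replicate numbers were checked through the correlation of deviations from group means. It was 0.529, 0.285 and 0.292 between same-numbered trypsinized and mock sorted arrays, and -0.359 to 0.161 between those of unlike number, so the numbers may pair these arrays. The main model, which gave the calls of the sorter step, had no term for such pairing. The correlation was 0.325, 0.18 and 0.063 between same-numbered untrypsinized and mock sorted arrays, and -0.283 to 0.144 between those of unlike number. The numbers may therefore pair these arrays too, in part. The main model did not take them as paired, and whether they shared preparations was not tested.

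The comparison and the gene lists were chosen with earlier results of these data known. Lists share members, such as Flt4 and Emcn, so the counts of different lists are not independent. Named genes were the 15 largest rises and 20 largest falls that were bright, without overlap and outside predicted, clone, small RNA, olfactory, vomeronasal and receptor segment symbols, up to 6 members with the smallest p of each list, the 12 highest and 12 lowest of the genes small in each step, and the 6 foremost genes of the step difference (in each direction) and of those called in a single step. Not all of them are described. Alternatives varied the scaling, pseudocount, filters, row choice, variance model, weights, block, thresholds and arrays.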

Additional observations from a re-analysis of the deposited data

How the results depend on the processing

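The call counts depended mainly on scaling, row choice and fold. Genes called higher numbered 116 after quantile normalization over all rows, 92 with a common median, 2234 over every row, 4189 with no minimum fold and 27 at 2-fold, and 179 to 249 with 1 array left out. Genes called lower numbered 1028 with a common median, 3588 with no minimum fold and 291 at 2-fold (644 to 715 with 1 array left out). Genes small in each step were 58 higher after quantile normalization over all rows, 74 with cyclic loess (chosen after seeing the data), 78 above the olfactory 95th percentile, 79 without the dimmest 4985 genes, 757 over every row, 1766 with no minimum fold and 13 at 2-fold (101 to 143 with 1 array left out). With a common median they were 47 higher and 569 lower, and the lower ones were 1323 with no minimum fold and 202 at 2-fold (329 to 356 with 1 array left out). The step difference gave 4 genes with a common median and over every row, 16 with cyclic loess, 238 above the olfactory 95th percentile, 172 without the dimmest 4985 genes, 520 with a robust trend, 83 with array weights, 0 with the replicate block and 3271 at unadjusted p (0 to 28 with 1 array left out). The cause was not tested.

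With no minimum fold, members called lower were 14 for pericytes, 22 for fibroblasts, 8 for macrophages and 10 for interferon genes. At 2-fold they were 4 for adipocytes, 1 for fibroblasts, 2 for muscle, 1 for macrophages, 2 for interferon genes and 9 for endothelial and mesenchymal factors. Fibroblast calls were 12 with a common median. Medians with a common median were 0.00 (luminal), 0.06 (hormone-sensing; 0.19 to 0.25 with 1 array left out), 0.08 (epithelial factors; 0.18 after quantile normalization over all rows, 0.20 with cyclic loess), 0.14 (desmosome) and -0.34 (basal; -0.15 after quantile normalization over the tested genes, and -0.20 to -0.16 with 1 array left out).

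With the replicate number as a block, mock sorted against untrypsinized gave 273 higher and 681 lower calls on 9 arrays, and 243 and 678 on the 6. Of 129 named genes called, 74 were called at 2-fold, and 119 to 129 under the other scalings, pseudocount, row choice, variance models, blocks and arrays. The filters on dim genes kept 127 and 124, all called. Named genes that lost their call in a setting kept their direction there. Directions of named genes without a call are not given for each setting. Several small list medians did change sign with a common median. Among them, claudins went from 0.11 to -0.04, immediate early genes from 0.05 to -0.1 and p53 targets from 0.13 to -0.02. Alveolar genes went from 0.01 to -0.14, oxidative stress genes from 0.03 to -0.12 and inflammatory genes from 0.01 to -0.14. Neuronal genes went from 0.09 to -0.06 and mast cell and granulocyte genes from 0.08 to -0.07. Dim rows, those under the olfactory 95th percentile, limit what can be read from rises.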
